A study of Mus musculus with 6 samples.

Results

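The genes described here are 9 genes of glutamine, glutamate and proline metabolism in B16F10 cells, an established line of mouse melanoma cells. They were taken by their symbols, Gls2, Glul, Glud1, Got1, Got2, Gpt2, Oat, Aldh18a1 and Pycr1, from a table of 27179 genes, and all 9 were found. The study grew wild-type B16F10 cells and gave them either ozonated olive oil (OZO) or plain olive oil (OLO), each at 0.01% for 6 h. RNA was sequenced from 3 libraries per oil, and no untreated library was part of the series. The values used are the authors' mean expression of each gene over all 6 libraries, in log2 CPM (CPM being the count of a gene scaled to a common library size). That mean joins both oils, so it gives a level in these cells and says nothing of a difference between OZO and OLO. The columns in which the authors compared the oils were not used here, and no value of a single library entered the analysis.

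Glutamine is taken up by many tumour cells as a source of carbon and nitrogen. Glutaminase turns it into glutamate, and glutamine synthetase makes it again from glutamate and ammonia. Glutamate then passes its carbon to 2-oxoglutarate through glutamate dehydrogenase or through transaminases, which move its amino group to another carbon chain. Glutamate is also the start of proline synthesis, through pyrroline-5-carboxylate (P5C), which ornithine can supply as well. With cysteine and glycine it forms glutathione, the thiol that protects cells from lipid peroxides.

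Among the 27179 genes, 6025 had no read in any library and share 1 lowest value. From that value follows a geometric mean library size of 19641945 reads, so 1 CPM stood for 19.6 reads per library. The labelled cell type matched its markers. All 7 pigment cell markers were above 100 CPM, from Sox10 at 109 CPM to Dct at 7052 CPM, whereas the 4 keratinocyte markers ranged from no reads (Krt5) to 0.0367 CPM. The 4 fibroblast markers reached at most 3.28 CPM (Pdgfra), the 2 endothelial markers 1.21 CPM (Pecam1) and the 3 leukocyte markers 0.271 CPM (Itgam).

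All 9 genes were expressed above 1 CPM, a level that 43.7% of all genes in the table reached. Their median was 6.99 log2 CPM, against -1.49 over all genes. Since longer transcripts yield more reads, folds between genes are given per kb of their joined exons, or per kb of a transcript where that is said, while percentiles and the limit of 1 CPM refer to CPM. Per kb, the highest of the 9 genes lay 280.5-fold above the lowest. Oat and Got2 together made up 62.9% of the summed CPM per kb. The error given with each level is the counting error alone, as a standard error on the log2 scale. Spread between cultures is not part of it.

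**Figure D1:**
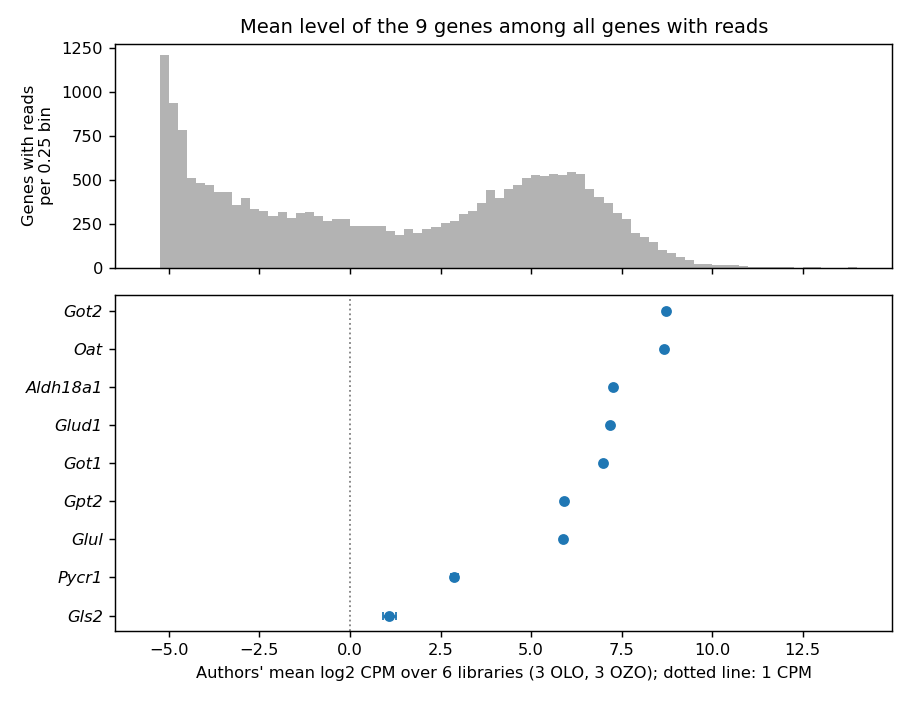
Mean level of the 9 genes on the log2 CPM axis, as the authors' mean over 6 libraries, below a histogram of all genes with reads on the same axis. Bars are 95% intervals of counting error only and are hidden by most points. Got2 and Oat lie in the upper tail at 8.73 and 8.66, 5 genes lie between 5.89 and 7.27, and Pycr1 and Gls2 stand apart at 2.88 and 1.09.

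Gls2, the gene of the liver-type glutaminase, had the lowest level per kb of the 9 genes. It averaged 1.09 log2 CPM (counting error 0.09), or 2.13 CPM, which corresponds to 41.8 reads per library. It lay above 60.1% of all genes in the table but above only 48.7% of the genes with reads. Divided by the joined length of its exons, Gls2 stood at -0.71 log2 CPM per kb. The Gls2 gene lies on chr10:128194457-128210004 of GRCm38 (mm10), plus strand, and shares 97 exonic bases with Spryd4 on the opposite strand, a gene with 2.75 log2 CPM.

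The low read number of Gls2 allowed a bound on its spread between libraries. The mean log2 CPM follows from the counts of the 6 libraries in such a way that the product of (2 x reads + 1) over the libraries can be recovered as a whole number. For Gls2 that product was 340408265625, whose largest prime factor is 151. Only 26356 sets of 6 counts give this product. In every one of them at least 1 library held 75 or more Gls2 reads and at least 1 held 20 or fewer. The most even set was 20, 22, 42, 57, 62 and 75 reads. Between the highest and the lowest library, 2 x reads + 1 therefore differed by at least 3.68-fold, before any scaling by library size. The bound follows from the factors of the product, so it says nothing of how Gls2 compares with other genes in spread. Which libraries were high and which low, and to which oil they belong, cannot be read from the product.

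Glutamine synthetase, the enzyme that runs against glutaminase, is encoded by Glul. It averaged 5.89 log2 CPM (counting error 0.02), or 59.2 CPM, above 85.2% of all genes. Per kb of exon it reached 4.16 log2 CPM, so that Glul was 29.1-fold above Gls2, and 25.6-fold with transcript lengths. Lgsn, a relative of Glul known from the eye lens, had no read in any library. Glul lies on chr1:153899944-153909723, plus strand, with 7 exons in the transcript that has the longest coding sequence.

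Glud1, the mitochondrial glutamate dehydrogenase, releases the amino group of glutamate as ammonia. Its level was 7.18 log2 CPM (counting error 0.01), or 145 CPM, above 94.1% of all genes. It lies on chr14:34310727-34345265, plus strand. Per kb it stood at 5.10 log2 CPM, the middle of the 9 genes, 1.93-fold above Glul, and 2.01-fold with transcript lengths.

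Of the 4 transaminases among the 9 genes, Oat, Got2 and Got1 were the highest 3 of all 9 per kb, whereas Gpt2 stood lower at 3.40 log2 CPM per kb, above Pycr1 and Gls2 only. Got2, the mitochondrial aspartate transaminase, averaged 8.73 log2 CPM (counting error 0.01), or 425 CPM, and only 308 genes of the table were higher. Got1, its cytosolic partner in the malate-aspartate shuttle, averaged 6.99 log2 CPM (counting error 0.01), or 127 CPM. Per kb, Got2 was 1.76-fold above Got1, and 2.72-fold with transcript lengths. Got1l1, a relative of Got1, was nearly silent at -2.63 log2 CPM. The genes lie on chr8:95864134-95888547 (Got2) and chr19:43499752-43524605 (Got1), both on the minus strand.

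Oat encodes ornithine aminotransferase, which joins ornithine to glutamate and proline metabolism through P5C. It averaged 8.66 log2 CPM (counting error 0.01), or 405 CPM, and per kb it was the highest of the 9 genes at 7.42 log2 CPM. Its lead over Got2 was 1.95-fold with joined exons and 1.12-fold with transcript lengths. The gene lies on chr7:132557478-132576398, minus strand, within the annotated span of Fgfr2, with which it shares no exonic base. Gpt2, the mitochondrial alanine transaminase, averaged 5.90 log2 CPM (counting error 0.02), or 59.8 CPM, and lies on chr8:85492576-85527560, plus strand. Its cytosolic counterpart Gpt averaged 5.82 CPM. Per kb, Gpt2 was 5.35-fold above Gpt (95% interval of the log2 difference 2.31 to 2.53, counting error only). The difference was 7.92-fold with the longest transcript and 5.06-fold with the transcript of the longest coding sequence.

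In the proline pathway, the gene of the first enzyme stood far above Pycr1. Aldh18a1, which makes P5C from glutamate, averaged 7.27 log2 CPM (counting error 0.01), or 154 CPM. Pycr1, a mitochondrial P5C reductase that completes proline, averaged 2.88 log2 CPM (counting error 0.05), or 7.36 CPM, which is 145 reads per library. Aldh18a1 was 20.3-fold above Pycr1 per kb, and at least 17.3-fold with other lengths. Pycr3, a related P5C reductase, averaged 24.2 CPM and was 9.68-fold above Pycr1 per kb, and 7.17-fold with transcript lengths. Pycr1 lies on chr11:120635712-120643769 and Aldh18a1 on chr19:40550257-40588463, both on the minus strand.

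**Figure D2:**
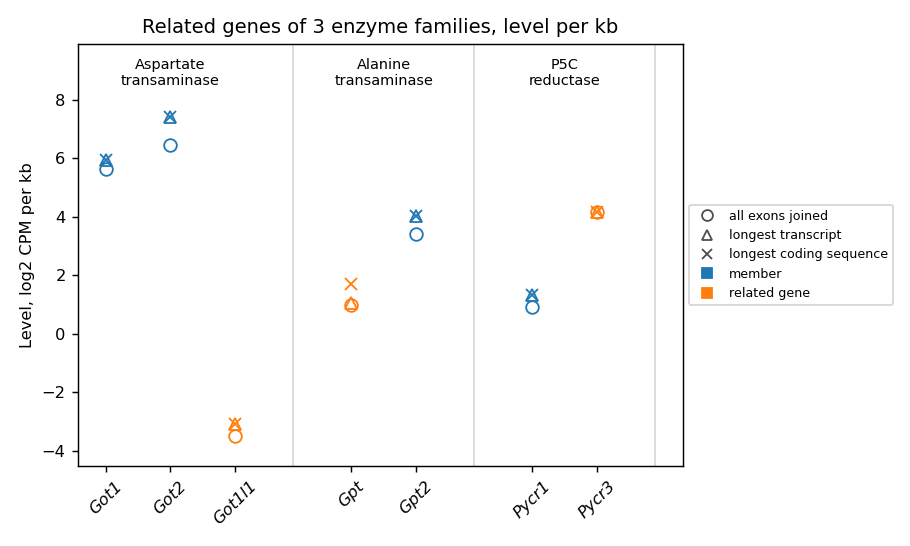
Level per kb (log2 CPM per kb, vertical axis) of related genes in 3 enzyme families, with 3 choices of length as circles, triangles and crosses. Genes of the 9 are blue and their relatives orange. Gpt2 lies above Gpt, Got2 above Got1 and Pycr3 above Pycr1, whichever length is used.

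Ordered by level per kb, the genes were Oat, Got2, Got1, Aldh18a1, Glud1, Glul, Gpt2, Pycr1 and Gls2. Aldh18a1 and Glud1 were the closest neighbours, with a difference of 1.10-fold that was 1.03-fold with transcript lengths, or 0.04 on the log2 scale. Every neighbouring pair differed by more than its counting error with joined exons, but without values of single libraries no test of these differences across cultures could be made.

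Sequence was examined because copies of a gene elsewhere in the genome can take up or lend reads. Got2, Glul and Glud1 have processed pseudogenes that are nearly the same as their coding sequence. The coding sequence of Got2 aligned over its whole length with Got2-ps1 at 99.1% identity, and the longest stretch without a difference was 315 bases over 3 exons. Glul aligned over its whole length with Glns-ps1 at 96.8% identity, with a longest unbroken match of 140 bases. Glud1 aligned with Glud-ps over 39.0% of its coding sequence at 97.6% identity, with an unbroken match of 133 bases. The 3 pseudogenes were not counted as genes of their own in the table, and how reads with several matches were treated is not given in the sources used here. The levels of Got2, Glul and Glud1 are therefore uncertain by the reads these copies share. For each match the part in 1 exon follows, in the direction of the gene, from the GENCODE transcripts on GRCm38, with the bases shared with the pseudogene in capitals.
Got2, exon 7 of 10, chr8:95870775-95870925, minus strand: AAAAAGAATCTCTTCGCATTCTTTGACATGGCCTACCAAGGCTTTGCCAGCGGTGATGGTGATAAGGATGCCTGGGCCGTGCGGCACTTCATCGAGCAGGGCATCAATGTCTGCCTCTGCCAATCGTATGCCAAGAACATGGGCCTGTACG
Glul, exon 7 of 7, chr1:153908025-153908179, plus strand: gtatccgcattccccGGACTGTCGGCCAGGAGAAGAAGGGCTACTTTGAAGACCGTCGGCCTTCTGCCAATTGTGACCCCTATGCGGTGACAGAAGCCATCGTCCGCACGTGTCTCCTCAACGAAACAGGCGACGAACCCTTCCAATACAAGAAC
Glud1, exon 11 of 13, chr14:34339927-34340018, plus strand: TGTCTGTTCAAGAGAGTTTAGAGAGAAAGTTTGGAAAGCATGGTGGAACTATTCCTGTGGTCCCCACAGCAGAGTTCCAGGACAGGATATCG

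Gpt2 matched the pseudogene Gm5049 at 90.2% identity, with an unbroken match of 70 bases. Got1 and Aldh18a1 had no match of at least 100 bases at 70% identity in another gene.

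Promoter windows of 250 bases before the start site were found in RefSeq (GRCm38.p6) for 8 of the 9 genes, all but Gls2. They were searched on both strands for 6 motifs. TGATGNAA, the letters of the amino acid response element bound by ATF4 and its partners, was found in 3.53% of 27025 promoters, 1 per gene, and in those of Pycr1 and Got1 among the 8. The CCAAT box, CCAAT, was found in 34.5% of the promoters and in 4 of the 8, with 5 matches in Got1. The GC box, GGGCGG, was found in 32.9% and in 5 of the 8. The antioxidant response element, TGANNNNGC, was found in 35.1% and in 2 of the 8, Got2 and Pycr1. The E-box, CACGTG, was found in 6.05% and in 1 of the 8, Aldh18a1. NACGTG, 1 form of the hypoxia response element that any E-box also holds, was found in 16.5% and in the same gene. Forms of that element with GCGTG were not searched for. Such matches are letters in a window, and binding was not measured. The promoters of Pycr1 and Got1 are shown because both hold TGATGNAA, which begins 103 and 102 bases before the start and lies on the other strand in Got1. TGATGNAA and CCAAT are in capitals.
Pycr1, chr11:120643749-120643998, minus strand: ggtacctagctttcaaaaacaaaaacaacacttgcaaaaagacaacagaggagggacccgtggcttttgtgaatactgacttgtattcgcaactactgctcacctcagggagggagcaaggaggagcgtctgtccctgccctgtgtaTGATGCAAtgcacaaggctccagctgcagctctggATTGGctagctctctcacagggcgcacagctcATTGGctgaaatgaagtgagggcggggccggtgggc
Got1, chr19:43524606-43524855, minus strand: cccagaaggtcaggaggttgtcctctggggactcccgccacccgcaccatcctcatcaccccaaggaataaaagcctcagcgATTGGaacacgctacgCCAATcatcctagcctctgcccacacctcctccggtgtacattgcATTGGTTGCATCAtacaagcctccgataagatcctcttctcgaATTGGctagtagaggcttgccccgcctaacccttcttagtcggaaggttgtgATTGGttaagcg

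Other genes of the pathway were described by 9 groups that hold 61 genes outside the 9. Of the 61 genes, 48 were at or above 1 CPM, or 78.7%, against 43.7% of all genes in the table. Enzymes that use the nitrogen of glutamine and genes of the mitochondrial shuttle were expressed throughout. All 10 glutamine amidotransferases passed 1 CPM, from Gfpt2 at -0.54 to Asns, the asparagine synthetase, at 6.97 log2 CPM per kb. All 7 genes of the malate-aspartate shuttle and the mitochondrial glutamate carriers did so too, from Slc25a18 at -0.57 to Mdh2, a malate dehydrogenase, at 6.47 log2 CPM per kb. Of the 4 genes for 2-oxoglutarate dehydrogenase, which oxidises the product of the transaminases, 3 stood between 4.18 (Dlst) and 6.51 (Dld) log2 CPM per kb, and the variant subunit gene Ogdhl at -3.68.

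Genes of proline breakdown were expressed beside those of proline synthesis. Prodh, the proline dehydrogenase, reached 1.77 and Aldh4a1, which turns P5C into glutamate, 2.03 log2 CPM per kb, and Prodh2 stood at -6.07 on the same scale. Of the synthesis genes, Aldh18a1 stood at 5.24, Pycr3 at 4.18 and Pycr1 at 0.90 log2 CPM per kb. Of the 12 other transaminases, 7 passed 1 CPM, and Psat1, the transaminase of serine synthesis, was the highest at 5.85 log2 CPM per kb. Of the 5 ornithine and urea cycle genes, 3 passed 1 CPM. Odc1, which turns ornithine into putrescine, stood at 7.69 log2 CPM per kb, above Oat, and Otc, an enzyme of the urea cycle in liver, at -6.70.

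The 4 genes listed as other glutamate producers, Nit2, Oplah, Ggt1 and Ggt7, all passed 1 CPM. Whether each of their enzymes makes glutamate was not examined. With joined exons, Ggt7 was the highest of the 4 at 3.43 log2 CPM per kb. Ggt1, which splits glutathione outside the cell, was the lowest at -1.11 on the same scale. With either transcript length Nit2 was the highest, at 4.29 against 3.75 log2 CPM per kb for Ggt7. The 3 genes of glutamate decarboxylation passed as well, with Gad1 at 1.07 and Gad2 at 1.26 CPM close to the limit, and Aldh5a1 at 15.2 CPM. Among 12 carriers for glutamine, glutamate and proline at the plasma membrane, 8 passed 1 CPM. Slc38a2, a sodium-coupled glutamine and alanine carrier, was the highest of them at 7.29 log2 CPM per kb, whereas Slc38a5 had the value that 1 read in 1 library gives.

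**Figure D3:**
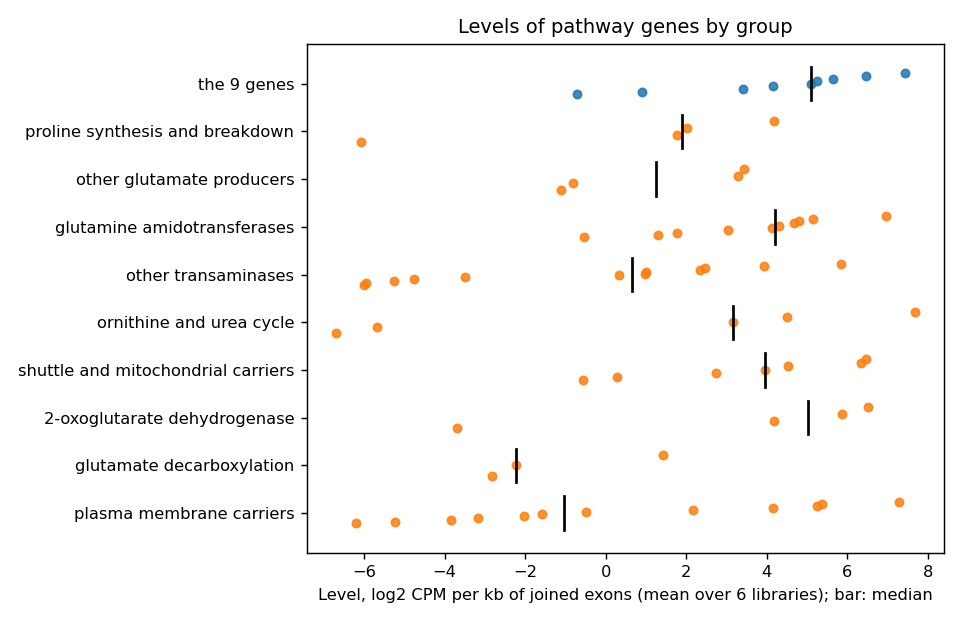
Level per kb (log2 CPM per kb of joined exons, mean over 6 libraries, horizontal axis) for the 9 genes in blue and for 9 groups of other pathway genes in orange, 1 point per gene, with the group median as a bar. The median of the 9 genes is 5.10, close to 5.03 for 2-oxoglutarate dehydrogenase, and the lowest median is that of glutamate decarboxylation at -2.23.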

How the data were processed

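Total RNA of B16F10 cells was sequenced by the study as strand-specific libraries, 3 per group. According to the methods and the submitters' processing notes, reads were aligned to mm10 with HISAT2 (2.1.0), counted per gene with featureCounts (2.1.1) and passed to limma-voom (limma 3.58.1). The authors deposited 1 table per gene, with the mean log2 CPM over all 6 libraries, which voom computes after adding 0.5 to each count. Its other 5 value columns, which hold the authors' log2 fold change, statistic, p-values and log odds for OZO against OLO, were not used. The design had foreseen a test of OZO against OLO only for values of single libraries, so none was made.

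The library size was computed from the value shared by genes without reads. Among 8941 genes with few reads, the product of (2 x reads + 1) was within 0.01 of an odd whole number in 100% of cases, and for 1574 genes with larger products, Gls2 among them, within 0.05. Such products show that the level is an unweighted mean over 6 libraries. The calculation was tested on simulated data. Counting errors treat reads as independent and were computed from the geometric mean of the reads, and 95% intervals cover counting error only. Read totals of each library are unknown.

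Lengths and positions come from GENCODE M21 (GRCm38, the build of the table), and levels per kb use all exons joined. Percentiles count all genes of the table. Coding sequences were compared with all transcripts by blastn 2.17.0. Python 3.11.15, pandas 2.3.3 and scipy 1.17.1 were used. All list genes were found in the table by symbol, apart from Ctps, which was found through its RefSeq gene ID. A few genes of these lists and some sequence matches are not reported here and were left out of the counts. Named genes were the 9 members, some of their close relatives, and the extremes and examples of each group, some of the latter chosen after their values were seen. Members and lists were chosen with earlier results of these data known.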

Additional observations from a re-analysis of the deposited data

How the results depend on the processing

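No paired analysis was possible because the value used is 1 mean over all 6 libraries. For the same reason the replicate block, leaving out each replicate, and other tests of OZO against OLO were not run. The median percentile of the 9 genes, 93.1 among all genes, was 91.1 among genes with at least 1 read and 91.0 among protein-coding genes. Their median level per kb, 5.10 log2 CPM per kb with all exons joined, was 5.41 both with the longest transcript and with the transcript of the longest coding sequence. The order per kb was the same for all 9 genes with either of these lengths, whereas without division by length 2 of the 9 kept their place. A limit of 5 CPM in place of 1 CPM left 40 of the 48 pathway genes. The 6 differences between genes computed with all 3 lengths kept their direction, while their size changed. Applying the transcript lengths to the order and to these differences was chosen after the data were seen. Among the 9 genes, counting error was at most 0.02 on the log2 scale except for Gls2 at 0.09 and Pycr1 at 0.05. The spread between cultures, which the mean does not hold, limits what can be said of any pair of close levels.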
